A study of Caenorhabditis elegans with 2 samples.

Results

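The 10 genes described here are regulators of muscle and other mesoderm in Caenorhabditis elegans, named as a list by symbol, out of 19973 protein-coding genes on the nuclear chromosomes. They were read in a chromatin immunoprecipitation and sequencing (ChIP-seq) study of UNC-39, a homeodomain protein related to Six4 and Six5. The worms were of strain OP186, genotype unc-119(ed3) III; wgIs186, in which an inserted transgene encodes UNC-39 tagged with eGFP, so both libraries share the unc-119 mutation and the tagged protein. The material was embryos of mixed stage and pooled sex, taken whole, so signal cannot be given to mesoderm cells or to any other cell type. There was 1 group with 2 biological replicates, and a control is named in the labels but was not analysed here. The labels give both the eGFP fusion and unc-39 as the target of the antibody.

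Mesoderm in the worm embryo includes body wall muscle, which is set up by factors that act together, among them the MyoD relative HLH-1, the serum response factor relative UNC-120 and the Hand relative HND-1. A single embryonic mesoblast, M, goes on to divide after hatching and gives further body wall muscle, coelomocytes, which are scavenger cells of the body cavity, and the sex myoblasts that make the egg-laying muscles. Those M-lineage divisions after hatching therefore fall after the stages sampled. This does not bear on other roles that the same genes may have in the embryo. Hox proteins and their Pbx-type partner CEH-20 act in M upstream of hlh-8, which encodes the worm Twist protein, and egl-15, which encodes the fibroblast growth factor receptor, is a known Twist target.

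The 2 regions of highest signal inside or directly upstream of one of these genes are printed here, because the main results rest on them. Each is 201 bases around the pooled summit, read on the strand of the gene from the RefSeq copy of WBcel235, the assembly that ce11 names. Capitals mark matches to TGACACC, the sequence known for Six4-type proteins, or to its first 6 bases, TGACAC, on either strand. The first lies upstream of ceh-20 at chrIII:6979083-6979283, plus strand, in intergenic sequence. The second lies in an intron of mls-2 at chrX:4759856-4760056, minus strand.
ceh-20 upstream region: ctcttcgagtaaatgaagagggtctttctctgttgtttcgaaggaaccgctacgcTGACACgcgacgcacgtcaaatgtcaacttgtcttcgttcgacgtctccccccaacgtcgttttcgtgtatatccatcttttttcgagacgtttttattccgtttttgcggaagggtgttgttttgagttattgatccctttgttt
mls-2 intron region: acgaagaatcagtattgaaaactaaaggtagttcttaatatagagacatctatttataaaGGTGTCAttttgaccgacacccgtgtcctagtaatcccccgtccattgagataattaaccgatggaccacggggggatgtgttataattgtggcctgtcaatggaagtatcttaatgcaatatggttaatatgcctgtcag

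The authors deposited peak lists, with a peak score called signal here, and no read counts, so the depth is unknown. Signal was read only within a list, as a rank, where rank 1 is the highest signal. On build ce11 the authors called 267 regions by their irreproducible discovery rate (IDR) rule, which compares how replicates rank peaks. Relaxed lists, made to include background, held 9046 peaks for the pooled replicates, 15880 for replicate 1 and 30000 for replicate 2. The called regions were the first 267 of the pooled list by signal, with 44.4 as the lowest called signal and 44.3 as the highest signal left out. A called region could therefore rank far apart in the libraries. The one nearest to cdc-48.1 ranked 71 in replicate 1 and 8213 in replicate 2. A gene was read as having a summit where the summit, the point of highest signal in a peak, lay in the gene or within 5 kb of either end.

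Of the 10 genes, 1 had a called summit, ceh-20, against 3.54% of all protein-coding genes. By the narrower measure of a called summit within 1 kb of a transcription start site (TSS) it was again ceh-20 alone, against 0.941% of genes. Relaxed summits were common near these genes, as they were near most genes. The pooled list had a summit near 8 of the 10, against 63.4% of all genes, and the lists of replicate 1 and replicate 2 had one near all 10, against 83.7% and 95.7%. The 2 genes without a pooled summit were unc-120, a muscle gene of the embryo, and sem-2, a gene of sex myoblast fate. A pooled peak that overlapped a peak of each replicate list lay near the same 8 of the 10, against 44.5% of all genes. Of all genes, 12667 had a pooled summit and 8883 had one with such an overlap. Within 1 kb of a TSS of the gene, 3 of the 10 (ceh-20, hlh-1 and hnd-1) had a pooled summit, against 21.5%.

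Members had somewhat longer windows than the average gene, with a median of 13.81 kb against 12.03 kb, so summits were also counted per length. Over 157.5 kb of member windows there were 17 pooled summits, or 10.8 per 100 kb (95% exact Poisson interval 6.29 to 17.3, counting error only). The windows of all protein-coding genes held 9.08 per 100 kb, which lies inside that interval. The replicate 1 list gave 20.3 per 100 kb (interval 13.9 to 28.7) against 16 for all genes, and the replicate 2 list gave 35.5 (interval 26.9 to 46.2) against 30.7. By density, then, the members did not stand apart from other genes beyond counting error in any of these 3 lists.

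**Figure D1:**
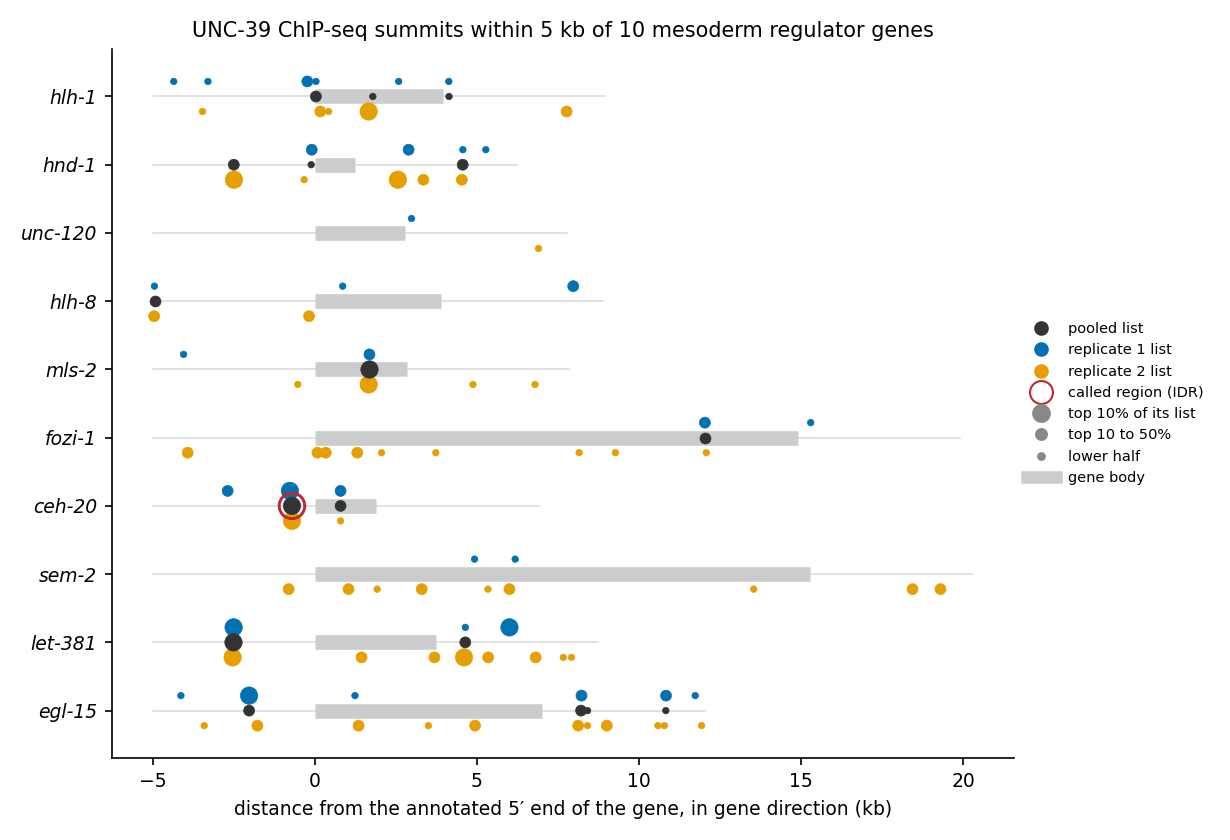
Summits within 5 kb of each of the 10 genes, plotted by distance in kb from the annotated 5′ end in gene direction, with the gene body as a grey bar. Blue (above), black (on the line) and orange (below) points are the replicate 1, pooled and replicate 2 lists, point size gives the part of its own list a summit ranked in, and the red ring at ceh-20 is the 1 called region.

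Among the embryonic muscle genes, hlh-1 had 3 pooled summits, all far below the called range. hlh-1 (WBGene00001948, chromosome II, 4518574 to 4522528, plus strand) encodes the MyoD-type factor of body wall muscle. Its strongest pooled summit lay 37 bp downstream of the TSS in an untranslated exon, at a pooled rank of 3185 (signal 23.8). Replicate 1 had 2 overlapping peaks, one at rank 7624 with its summit 227 bp upstream of the TSS and one at rank 13382 with its summit 39 bp downstream, close to the pooled summit. The overlapping peak of replicate 2 ranked 4933, with its summit 172 bp downstream of the TSS. A further summit in an hlh-1 intron, 1299 bp from the nearest hlh-1 TSS, was seen by replicate 2 and not by replicate 1. It ranked 2053 in replicate 2, the best rank of any hlh-1 summit in either library, and 5196 in the pooled list. The third pooled summit (rank 6820) lay 187 bp past the gene end, in an intron of the neighbour B0304.4, and overlapped a peak of replicate 1 only.

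The Hand-type gene hnd-1 (WBGene00001981, chromosome X, 11684561 to 11685788, plus strand), which acts early in muscle formation, also had 3 pooled summits. The one nearest to it lay 108 bp upstream of its TSS with a signal of 19.4, a pooled rank of 7415, and ranks of 4327 in replicate 1 and 19923 in replicate 2. The other two, with pooled ranks of 3733 and 4208, lay closer to the TSSs of T04F8.7 and C44C10.7 than to that of hnd-1. The first of these overlapped a peak of replicate 2 only, at rank 2083.

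At unc-120 (WBGene00006844, chromosome I, 8460225 to 8463015, plus strand), which encodes the serum response factor relative, signal was the sparsest of the 10 genes. Replicate 1 had 1 summit there, 188 bp past the gene end at rank 12055, and replicate 2 had 1, 4092 bp past it at rank 15967. No summit of any list fell inside the gene, and the nearest called region was 200.7 kb away.

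Among the genes known to act in the M lineage, ceh-20 had the called region. ceh-20 (WBGene00000443, chromosome III, 6979884 to 6981785, plus strand) encodes a Pbx-type homeodomain protein that binds DNA with Hox proteins. The region (6978995 to 6979370) had its summit 701 bp upstream of the only annotated TSS, past the end of the upstream gene F31E3.2 and with no noncoding RNA gene within 200 bp. Its signal was 45.1, which placed it at rank 261 of 267, close to the end of the called list. The overlapping peak ranked 329 in replicate 1, with a signal of 25.6, and 350 in replicate 2, with a signal of 21.3. Neither library alone placed it among its own 267 strongest peaks. The replicate 2 summit fell on the pooled summit and that of replicate 1 lay 64 bp farther upstream. In the printed sequence TGACAC lies 40 to 45 bases upstream of the pooled summit, between the summits of the libraries. The full TGACACC was absent there, and the shorter sequence was chosen after this region had been seen.

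The median called region ranked 147.5 in replicate 1 and 152.5 in replicate 2 (266 regions in each), and 64 and 73 called regions ranked below the ceh-20 region in those libraries. The 3 called regions most like it, by distance in log10 rank over the 2 libraries, lay nearest to the TSSs of Y51A2D.21 (ranks 326 and 377), scpl-3 (317 and 302) and Y59A8B.24 (346 and 303). A weaker pooled summit lay inside ceh-20, in a coding exon 798 bp downstream of the TSS, at a pooled rank of 2606 (signal 24.9). The summits of both libraries fell within 1 bp of it, at rank 7386 in replicate 1 and 16884 in replicate 2.

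The intron region of mls-2 missed the called list on ce11 by 27 places. The authors' called list on ce10 is longer and was not read at this gene, so whether the region is called there was not looked up. mls-2 (WBGene00003377, chromosome X, 4758804 to 4761640, minus strand) encodes an HMX-type homeodomain protein that controls cell divisions and fates in the early M lineage. The region (4759768 to 4760143) had its summit 1684 bp downstream of the TSS. Its signal was 43.1 against 44.4 for the last called region, which put it at pooled rank 294. It ranked 296 in replicate 2 (signal 22.1) and 1605 in replicate 1 (signal 17.5), so the libraries placed it differently. The summits nonetheless sat within 4 bp of the pooled one in replicate 1 and 20 bp in replicate 2. Among protein-coding genes, mls-2 had the TSS nearest to that summit.

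**Figure D2:**
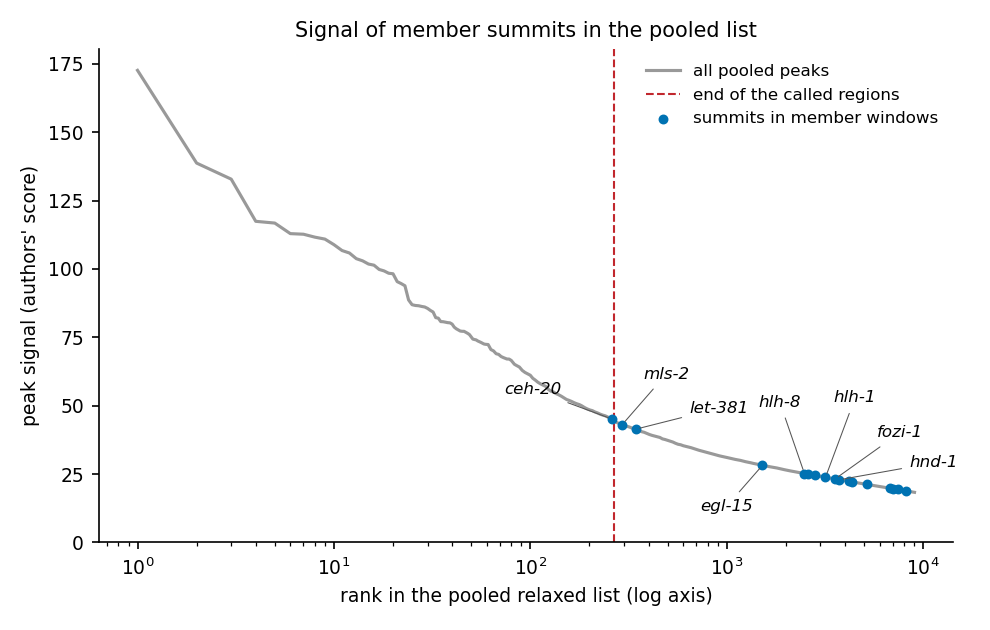
Peak signal (authors' score) against rank in the pooled list on a log axis. Blue points are the 17 pooled summits in member windows, labelled at the best summit of each gene, and the dashed line marks the end of the 267 called regions, with ceh-20 just inside it and mls-2 and let-381 just outside.

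The pooled summits of the other M-lineage factors ranked lower, and each overlapped a peak of both libraries. hlh-8 (WBGene00001953, chromosome X, 8116457 to 8120351, plus strand), the Twist gene, had 1 pooled summit at the edge of its window, 4931 bp away and in a coding exon of K07E3.1, with a pooled rank of 2488. The overlapping peak of replicate 1 ranked 12872. Replicate 2 had 2 overlapping peaks, one at rank 4302 with its summit 7 bp from that of replicate 1, and one at rank 3180 with its summit 213 bp from it. Just past the edge, the nearest pooled summit to any of the 10 genes lay 5498 bp from ceh-20 (rank 1904). Nearer to hlh-8, replicate 2 had a summit 174 bp upstream of its TSS at rank 4765, and no peak of the pooled list or of replicate 1 had its summit within 1 kb of that TSS on the upstream side. fozi-1 (WBGene00010453, chromosome III, 9281780 to 9296675, plus strand) encodes a zinc finger protein of the M lineage. Its 1 pooled summit lay in a coding exon toward the 3′ end of the gene, 3632 bp from the nearest TSS, that of K01B6.4, at pooled rank 3561, with ranks of 2904 in replicate 1 and 15343 in replicate 2. Replicate 2 alone had summits 84 and 341 bp downstream of the fozi-1 TSS, at ranks 3957 and 7947.

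For the fate genes, let-381 had a strong neighbour and sem-2 had scattered weak summits. let-381 (WBGene00002601, chromosome I, 6320289 to 6324019, minus strand) encodes a FoxF-type forkhead protein needed for coelomocyte fate. In its window a summit with a signal of 41.4 ranked 344 in the pooled list, 77 places below the last called region, and it ranked 485 in replicate 1 and 881 in replicate 2. That summit lay 2504 bp upstream of let-381 but 98 bp upstream of F26B1.1, so the position alone does not assign it to let-381. A weaker one (pooled rank 4326) lay in an intron of hrpk-1, with ranks of 13971 in replicate 1 and 2423 in replicate 2. Replicate 1 also had a summit 16 bp from the TSS of hrpk-1 at rank 764 (signal 20.6), which no peak of replicate 2 or of the pooled list overlapped. sem-2 (WBGene00004771, chromosome I, 5204530 to 5219815, minus strand) encodes a SoxC-type protein that sets sex myoblast fate. It had 2 summits in replicate 1, the better at rank 9094, and 9 in replicate 2, the best at rank 4559 and 3148 bp outside the gene. The libraries overlapped at 1 place in sem-2, ranked 9094 in replicate 1 and 13162 in replicate 2, with summits 176 bp apart.

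The receptor gene egl-15 (WBGene00001184, chromosome X, 11016400 to 11023421, plus strand), which guides sex myoblast migration, had 4 pooled summits, none of them inside the gene. The strongest lay 2022 bp upstream of the TSS, in a coding exon of the neighbour F58A3.3, with a signal of 28.2 and a pooled rank of 1521. It ranked 648 in replicate 1 and 3925 in replicate 2, where the summit lay 256 bp away from the pooled one. The other 3 lay between egl-15 and ldb-1 at pooled ranks of 2830, 7032 and 8180, nearer to the TSS of ldb-1.

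**Figure D3:**
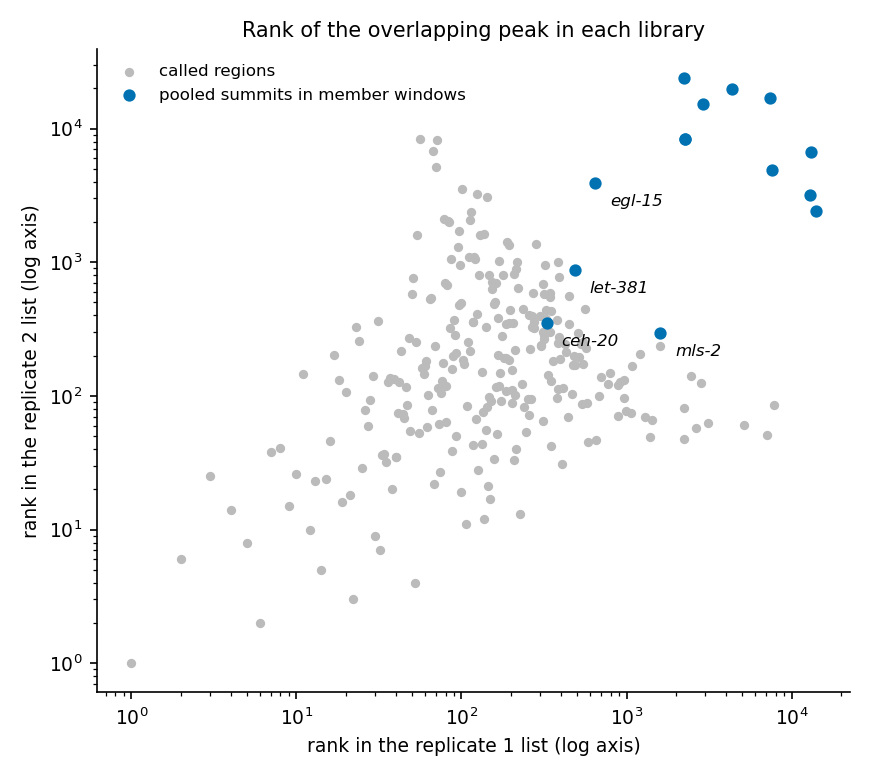
Rank of the best-ranked overlapping peak in the replicate 1 list (x) and the replicate 2 list (y), both on log axes, for the called regions (grey) and the 14 pooled summits in member windows that had a peak in both libraries (blue). The points of lowest rank are ceh-20 (329 and 350), mls-2 (1605 and 296), let-381 (485 and 881) and egl-15 (648 and 3925), and the other 10, of which 2 coincide, lie at rank 2229 or beyond in both libraries.

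Taking the 17 pooled summits as a whole, 14 (82.4%) overlapped a peak of each library, against 58.2% of the 9046 peaks of the pooled list. A pair of egl-15 summits shared their best-ranked overlapping peaks, so these are not independent. By annotation, 8 lay between genes, 4 in introns, 4 in coding exons and 1 in an untranslated exon. The nearest TSS of a protein-coding gene was that of the member for 6 of the 17, and 5 lay inside the member gene. None of the 17 had a noncoding RNA gene within 200 bp. These places were not counted over the whole pooled list, so they describe the 17 summits and cannot be called particular to them.

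The best pooled rank near each gene had a median of 2836.5 over the 10 members, against 6118 over all protein-coding genes. Genes lacking a summit were placed after the last peak. Member windows were somewhat longer and a longer window can hold more summits, so the 2 medians are not matched for length. Neither these medians nor the other comparisons with all genes or the whole pooled list are matched for chromosome. Chromosome X held 4 of the 10 members and 9 of their 17 pooled summits. A pooled summit of the mls-2 signal or higher lay near 2 of the 10 members, against 3.90% of genes, and one of the let-381 signal or higher lay near 3, against 4.54%. These cut-offs were taken from the members' own values, so the counts describe the list and show nothing particular to it. Among the 9 genes without a called summit, the nearest called region lay from 31.65 kb away at let-381 to 324.1 kb at mls-2. Called regions were sparse in the whole genome, at 0.266 per 100 kb.

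**Figure D4:**
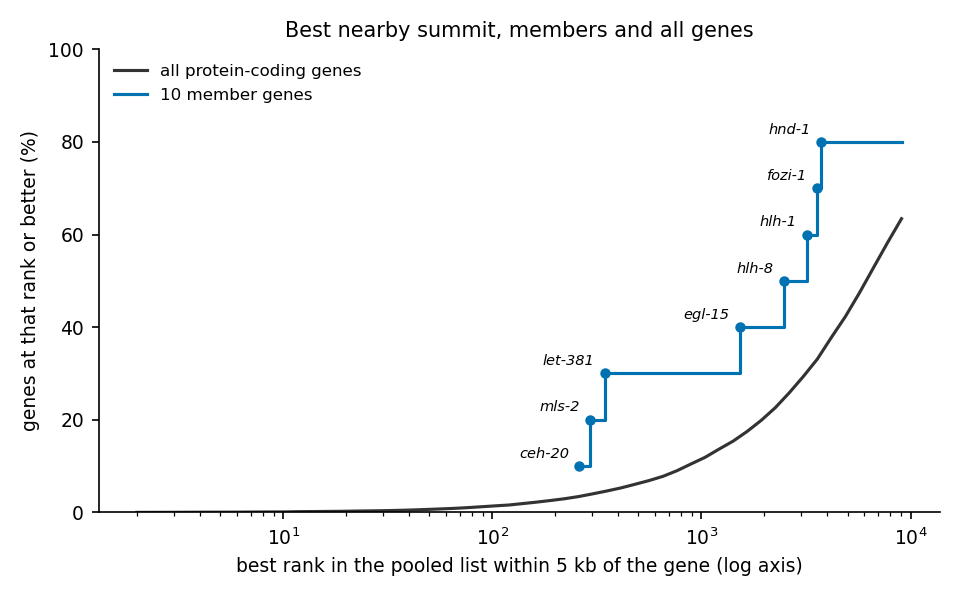
Share of genes (%) whose best pooled summit within 5 kb has at most the rank on the x axis (log axis), for all 19973 protein-coding genes (black) and the 10 members (blue steps, each gene named). The blue steps reach 80% of the members and the black curve 63.4% of all genes, and unc-120 and sem-2 have no point.

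Sequence in the 17 member windows of 201 bases was compared with the same windows at all called and all pooled summits, on both strands. TGACACC was present in 1 of the 17, the mls-2 intron, as GGTGTCA on the printed strand, 34 to 40 bases from the summit. It was present in 4.87% of called windows and 3.47% of pooled windows. Its first 6 bases, TGACAC, which the longer sequence contains, were present in 4 of the 17, at the called ceh-20 region, the mls-2 intron, the hlh-1 start and the egl-15 summit nearest to ldb-1, against 16.1% of called and 10.1% of pooled windows. This shorter sequence was chosen after the printed regions had been seen. The next 2 sequences, GAGAGAGA, a GA repeat, and GAGACGCA, were chosen with earlier results of these data known. Their higher shares in called windows are therefore not an independent result. GAGAGAGA was present in 1 member window, the hlh-1 intron, against 12.7% of called and 4.90% of pooled windows. GAGACGCA was present in 1, at the let-381 neighbour F26B1.1, against 10.9% of called and 3.53% of pooled windows. The E-box CAGCTG was in 1 (8.99% and 5.46%), and TGATNNAT, a sequence known for Pbx and Hox proteins, was in 2, the hlh-1 intron and the ceh-20 exon (6.37% and 12.4%). The called ceh-20 window held none of these but TGACAC. Its GC content was 44.8% and that of mls-2 was 39.3%, against a mean of 47.2% in called windows (SD 6.37, n = 267), 41.2% in pooled windows (SD 7, n = 9046) and 35.4% in the genome.

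Genes that act with these regulators were read from 6 further lists, which hold 57 genes. A called summit lay within 5 kb of 4 of them (7.02%), against the 3.54% of all genes, and a pooled summit near 46 (80.7%, against 63.4%). None of the 57 had a called summit within 1 kb of a TSS, against 0.941% of all genes. That share is so low that finding none among 57 genes does not set them apart. By list, a called summit was near 1 of 8 genes of embryonic mesoderm specification (med-2), 1 of 10 further M-lineage and muscle factors (sys-1), 1 of 8 Notch genes (sel-8) and 1 of 9 genes of Sma/Mab signalling (sma-6). It was near none of 10 Hox and Hox cofactor genes and none of 12 fibroblast growth factor pathway genes, where a pooled summit lay near 7 and 10.

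Of those 4 summits only the sel-8 one had the listed gene's TSS as its nearest. sel-8, which encodes a coactivator of Notch signalling, had it in an intron, 2302 bp upstream of the nearest sel-8 TSS, with a signal of 50.3 and ranks of 120 in replicate 1 and 1061 in replicate 2. The med-2 summit (signal 46.9) lay inside a tRNA gene and nearest to the TSS of brd-1. The sys-1 summit (rank 67 of the called regions) lay 148 bp from the TSS of the histone gene his-68. The sma-6 summit (signal 46.7) lay 322 bp from the TSS of set-4, and its region ranked 70 in replicate 1 and 5177 in replicate 2.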

How the data were processed

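ChIP-seq of eGFP-tagged UNC-39 was done in 2 biological replicates of 1 group, per the labels. The deposited files used here were 4 peak lists on ce11, and 4 further lists on ce10 were not used, because coordinates were not converted between builds. Relaxed lists came from alignments plus a control, and IDR compared the replicate and pooled lists to give the called regions, per the notes the authors deposited. The deposited signal column is the score the authors' peak caller gave each peak, and the deposited −log10 q column was used only as another ranking. The aligner, the peak caller and their versions were not given in the sources used here, and depth is unknown.

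Summits (1-based) were assigned with Python 3.11.15 and pandas 2.3.3 to protein-coding genes of Ensembl release 115, WBcel235. A window was the gene plus 5 kb on each side. Peaks that shared at least 1 bp were read as overlapping, and where several overlapped, the best-ranked was taken. Window assignment was tested on simulated data. With 1 group no test between groups was possible, so counts stand beside the share of all genes. All member genes were named, with the nearest coding gene of each summit, list genes with a called summit, and the 3 called regions most like that of ceh-20. The members, lists, motifs and settings were chosen with earlier results of these data known. Alternatives changed the window, the peak list, the overlap and the ranking.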

Additional observations from a re-analysis of the deposited data

How the results depend on the processing

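The call at ceh-20 rested on the full list of 267 regions. Among called regions at or above their median signal of 54.6, the number of members with a called summit was 0, both within 5 kb and within 1 kb of a TSS. It was also 0 by either measure with the 267 strongest peaks of either library alone. Within 500 bp of a TSS it was 0. It stayed at 1 with windows of 1, 2 or 10 kb, with 5 kb around any TSS and with any base of the peak. The 267 strongest pooled peaks are the called regions themselves, so that setting could not change the count. Ranked by −log10 q, the ceh-20 region stood at 217 of 267, where 211 regions tied at the highest value. With only the peaks at or above the median signal of each replicate list, 5 members (hlh-1, mls-2, ceh-20, let-381 and egl-15) had relaxed peaks of both libraries at 1 place, in place of 8. The share of all genes was not computed at this stricter setting, so that count has no background beside it. Relaxed summits per 100 kb ranged from 20.3 with replicate 1 alone to 35.5 with replicate 2 alone, in place of 10.8, since those lists are longer. The counts of 0 follow from the values of the ceh-20 region. Its summit lay 701 bp from the TSS, its signal was 45.1, and it ranked 329 in replicate 1 and 350 in replicate 2. The cause of the remaining changes was not tested. Without read counts, a weak summit cannot be told from background by depth.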
